A study of Mus musculus with 2 samples.

Results

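Immediate early high DETCs were the dendritic epidermal T cells (DETCs) of mouse ear skin in which 12 immediate early genes together made up at least 1.2% of a cell's transcript counts. The 12 genes, called the rule genes here, were Fos, Fosb, Jun, Junb, Egr1, Ier2, Dusp1, Nr4a1, Zfp36, Btg2, Klf6 and Atf3, and their summed percentage is called the score. DETCs were taken as barcodes with 500 to 2500 detected genes, at most 12% mitochondrial UMIs (unique molecular identifiers, 1 per captured transcript), at least 3 UMIs of Trdc, at least 3 of Cd3d, Cd3e and Cd3g together, and 0 UMIs of Trac, Cd4, Cd8a and Cd8b1. Cells with Hspa1a and Hspa1b at 1% or more of their UMIs were not eligible. Of 8489 DETCs among 10203 barcodes with acceptable gene number and mitochondrial share, 3143 were members. With isotype 1257 of 3544 DETCs were members, and with Skint1 antibody 1886 of 4945. The other DETCs, 2287 and 3059 cells, included 354 and 220 cells set aside for their heat shock transcripts, and 211 and 111 of those had a score of 1.2% or more.

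Both libraries came from wild-type female FVB/NJ mice aged 8 weeks, and the antibody had been injected intradermally into the ear 7 d earlier. One group received an isotype control antibody and the other an antibody against Skint1, a keratinocyte surface protein that selects and engages DETCs. Ear epidermis was digested with warm trypsin, viable cells bearing CD45 but neither EpCAM nor MHC-II were purified by flow sorting, and 1 droplet library was made per treatment. With n = 1 per treatment, treatment, mouse and library cannot be told apart, and no test between treatments was possible. Because the members were selected on measured values of the same cells, differences between members and other DETCs are given as descriptions with no test. Levels are UMIs summed over a set of cells and scaled to a total of 1000000 UMIs (CPM), ratios of levels are on the log2 scale without a pseudocount, and where 2 values follow a gene they are isotype first, then Skint1 antibody. A value given for a gene without a unit is its log2 ratio of members over other DETCs. The 95% intervals in parentheses cover counting error only.

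DETCs are γδ T cells that seed the epidermis before birth, carry an almost invariant Vγ5Vδ1 T cell receptor (TCR) and stay in the epidermis for life. They sit between keratinocytes, read their state through the TCR and through stress ligand receptors, and are known as a source of epidermal growth factors, cytokines and cytotoxic granule proteins. Immediate early genes are transcribed within minutes of a signal, without new protein synthesis: many encode transcription factors, such as the Fos and Jun proteins that pair as AP-1, and others encode inhibitors that end the signal, such as Dusp1, a phosphatase of MAP kinases, and Zfp36, which binds AU-rich mRNAs and promotes their decay. TCR signals, tissue stimuli and the handling of tissue during dissociation are all known inducers of these genes, and no group of samples here separated them.

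Fos dominated the score. It supplied 38.4% of the members' score UMIs with isotype and 37.1% with Skint1 antibody, followed by Btg2 with 13.8% and 14.7% and Junb with 11.1% and 10.8%. Fos was the most abundant rule gene in 83.2% of members of either library. The members nevertheless carried many rule genes at once, with a median of 10 of 12 detected and at least 8 detected in 89.7% and 89.6% of members. As fixed by the rule, Fos was at 7239 against 1916 CPM with isotype and 7349 against 1512 CPM with Skint1 antibody, and Egr1, a zinc finger transcription factor, at 574 against 162 CPM with isotype and 822 against 145 CPM with Skint1 antibody. When members were chosen by the other 11 genes, taking the same number of cells per library, 1097 of 1257 (87.3%) and 1687 of 1886 (89.4%) were again members. In these cells Fos, no longer part of the choice, was at 6425 against 2341 CPM (log2 ratio 1.46) and 6734 against 1902 CPM (1.82). When each cell's UMIs were divided at random into a part that chose the members and a part that measured them, Fos in the measured part was 1.84 and 2.17 higher on the log2 scale.

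**Figure D1:**
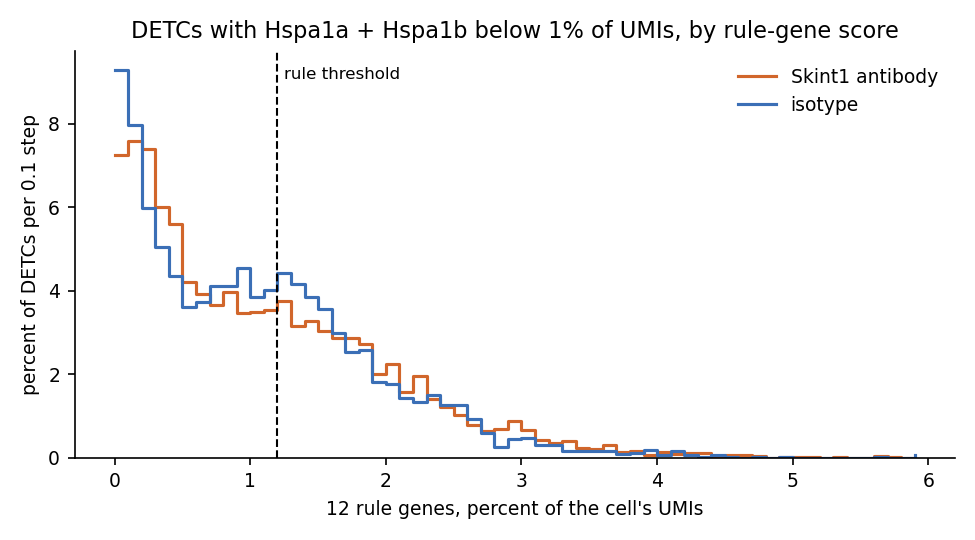
Score (12 rule genes as a percent of the cell's UMIs, horizontal axis, steps of 0.1) against the percent of DETCs with Hspa1a and Hspa1b below 1% of UMIs (vertical axis) for each library, with the rule's threshold of 1.2% as a dashed line. Neither curve has a gap at the threshold, so the members are the upper range of a continuous score. The isotype curve dips to 3.61% of cells at 0.5 and stands again at 4.55% at 0.9 and 4.42% at 1.2.

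The score had no gap at the threshold, as the distribution of scores over cells shows. Its median was 1.72% and 1.83% in members and 0.562% and 0.466% in the other DETCs. Just below the threshold, at 1.0 to 1.2%, were 251 and 332 cells, with Areg at 636 and 637 CPM, Vegfa at 62.1 and 63.8 CPM and Maff at 112 and 112 CPM. Just above it, at 1.2 to 1.4%, were 274 and 326 cells, with Areg at 937 and 826 CPM, Vegfa at 103 and 87.4 CPM and Maff at 189 and 159 CPM. The members are therefore a range of a score, and whether they form a separate cell type was not tested.

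Members resembled the other DETCs in depth and quality. Their median UMI number was 3981 with isotype and 3508 with Skint1 antibody, against 4054 and 3612 in the other DETCs, and their median mitochondrial share was 5.45% and 5.53%, against 5.43% and 5.63%. Only 3 barcodes passed the DETC gate in both libraries, and 1 was a member in both. Of barcodes typed as αβ T cells (Trac and CD3 transcripts, no Trdc), 12 of 153 (7.84%, 4.12 to 13.3) and 12 of 141 (8.51%, 4.48 to 14.4) passed the same score and heat shock limits. DETCs with more than 2500 genes passed in 57 of 312 (18.3%) and 63 of 287 (22.0%) cases.

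The γδ T cell identity was present in members. Trdv4, which encodes the Vδ1 chain of DETCs, stood at 996 against 968 CPM with isotype and 811 against 776 CPM with Skint1 antibody, and Tcrg-V5, which encodes the Vγ5 chain, at 51.4 against 63.03 CPM with isotype and 55.2 against 67.03 CPM with Skint1 antibody. Summed over the 10 keratinocyte markers, members had 47.3 and 63.1 CPM, other DETCs 48.1 and 68.1 CPM, and the free RNA in near-empty droplets 1740 and 2544 CPM. The 10 Langerhans and myeloid markers summed to 28.7 and 32.7 CPM in members and 27.0 and 18.8 CPM in other DETCs, with Csf1r and Mpeg1 at 0 in members of both libraries. The 8 NK and innate lymphoid markers summed to 39.9 and 29.0 CPM in members and 26.8 and 18.5 CPM in other DETCs, with Klra8 and Arg1 at 0. The 7 dermal γδ T cell markers found in the files, Il17a and Maf among them, summed to 96.8 and 79.6 CPM in members and 59.6 and 66.2 CPM in other DETCs. Il17a gave 30.2 CPM of the isotype members' sum and 0.732 CPM of that of the other DETCs, and 149 of its 154 member UMIs lay in 10 cells. The 11 mast cell, neutrophil, fibroblast and melanocyte markers summed to 1.18 and 1.43 CPM in members and 1.25 and 1.28 CPM in other DETCs, with Cpa3, Cma1, Mcpt4, Dcn and Dct at 0. The 8 αβ T cell markers summed to 2380 and 1973 CPM in members and 2700 and 2384 CPM in other DETCs, and Trac, Cd4 and Cd8b1 were at 0 by the rule. The β constant regions Trbc1 and Trbc2 gave 1376 and 1081 CPM and 1002 and 891 CPM of the members' sums. Thus the NK, myeloid and dermal γδ sums were higher in members of both libraries, the keratinocyte and αβ T sums were not, and the part of other cells in single genes was not tested.

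Outside the rule genes, 5326 genes reached 20 CPM over the DETCs of each library. Members had 114 of them (2.14%) at least 2-fold higher than the other DETCs in both libraries and 3 (0.0563%) at least 2-fold lower. The 95% interval of the ratio lay above 0 in both libraries for 700 genes (13.1%) and below 0 for 1648 (30.9%), and the median gene stood at -0.14 in each library. The difference was thus steep for a small set of higher genes and shallow for a large set of lower ones. A gene between -0.14 and 0 stood above the median gene, and the counts of intervals above and below 0 given for the lists stand beside these 13.1% and 30.9%. Of the 114 higher genes, 98 had the larger ratio in the Skint1 antibody library, with medians of 1.21 and 1.4, beside -0.14 in each library over all genes tested. The share of all genes with the larger ratio in that library was not counted. In the split of UMIs, 97 genes were at least 2-fold higher and 93 of them were among the 114.

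**Figure D2:**
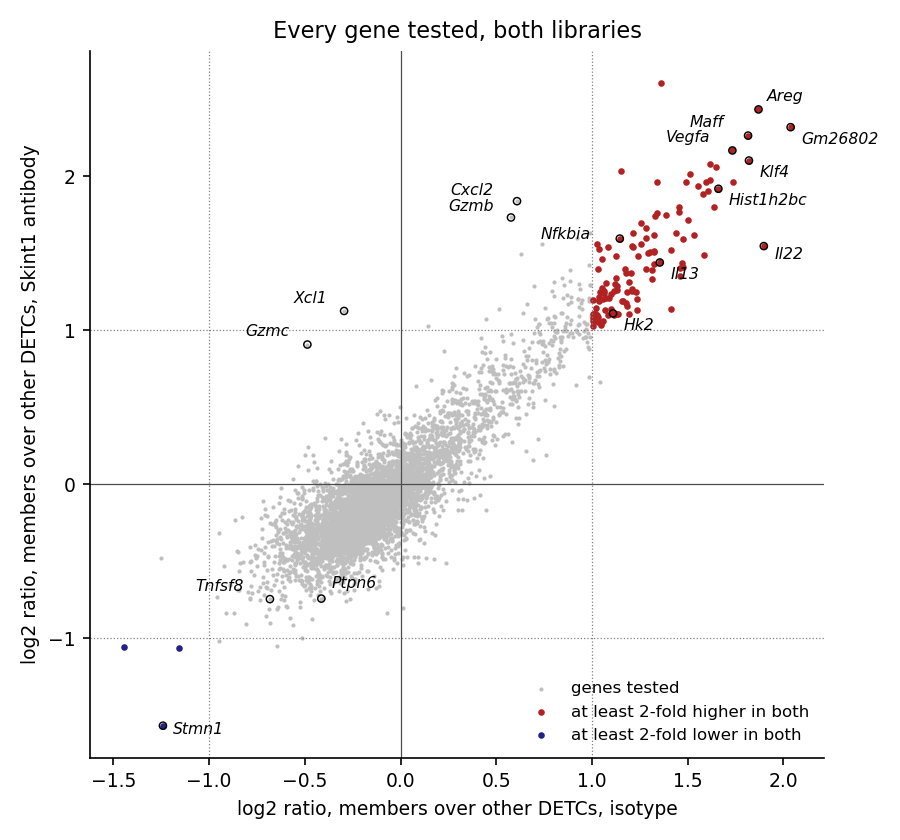
Log2 ratio of the level in members over the level in other DETCs for each of the 5326 genes, isotype library on the horizontal and Skint1 antibody library on the vertical axis, with dotted lines at 2-fold. Areg, Maff, Vegfa, Klf4 and Gm26802 lie at the upper right, Stmn1 at the lower left, and Xcl1 and Gzmc at opposite signs in the 2 libraries.

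Among the genes with the highest ratios were the growth factor gene Areg, several transcription factor genes and a noncoding RNA gene. Areg, which encodes the epidermal growth factor receptor ligand amphiregulin, stood at 1126 CPM in members and 308 CPM in other DETCs with isotype, and 1135 and 210.0 CPM with Skint1 antibody, which gave log2 ratios of 1.87 (1.81 to 1.93) and 2.43 (2.37 to 2.5). The members of the 2 libraries were within a few CPM of each other, and the other DETCs were lower in the Skint1 antibody library. Maff, a small Maf protein that binds DNA as a dimer, was at 174 against 49.5 CPM with isotype and 171 against 35.7 CPM with Skint1 antibody, with ratios of 1.82 and 2.26. Klf4, a zinc finger factor that restrains T cell proliferation, was at 493 against 139.6 CPM with isotype and 445 against 104 CPM with Skint1 antibody, with ratios of 1.82 and 2.1. All 3 genes were higher in members of both libraries, with intervals far from 0. Gm26802, a long intergenic noncoding RNA gene at chr7:19298260-19300770 on the minus strand (GRCm38), had the largest isotype ratio, 2.04, and 2.32 with Skint1 antibody. It lies 1925 bases downstream of the rule gene Fosb on the same strand, and whether its UMIs come from Fosb transcripts was not tested. Egr4, a relative of Egr1, had the largest Skint1 antibody ratio, 2.61, and 1.36 in the isotype library.

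Areg lies at chr5:91139599-91148432 on the plus strand and Maff at chr15:79346621-79359076 on the plus strand (GRCm38). Their promoters are shown because both genes were among the 4 with the largest ratios, ranked by the smaller of the 2 libraries, and share an 8-base element with the promoters of the rule genes Btg2 and Dusp1. The sequences are RefSeq promoter windows (GRCm38.p6), given 5′ to 3′ on the strand of the gene, and capitals mark TGACGTCA, the full cAMP response element bound by CREB and ATF proteins. None of the 4 stretches overlapped an annotated exon. The RefSeq transcript starts used for Maff and Dusp1 lie inside the longer gene spans of the other annotation, which for Maff is the span just given.
Areg, chr5:91139502-91139581, plus strand, element starting 61 bases before the RefSeq start: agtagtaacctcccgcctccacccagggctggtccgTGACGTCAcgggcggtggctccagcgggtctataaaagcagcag
Maff, chr15:79347455-79347519, plus strand, element starting 29 bases before the RefSeq start: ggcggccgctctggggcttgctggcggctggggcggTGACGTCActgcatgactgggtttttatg
Btg2, chr1:134079278-134079357, minus strand, element starting 166 bases before the RefSeq start: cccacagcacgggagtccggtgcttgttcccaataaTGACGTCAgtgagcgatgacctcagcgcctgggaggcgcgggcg
Dusp1, chr17:26508572-26508651, minus strand, element starting 143 bases before the RefSeq start: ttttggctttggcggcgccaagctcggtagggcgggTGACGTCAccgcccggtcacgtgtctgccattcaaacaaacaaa

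Windows from 250 bases before to 50 after the start were found for 82 of the 114 higher genes (107 windows, since some genes have several starts) and 10 of the 12 rule genes. Searched on both strands, TGACGTCA was in 6 of 107 windows of the higher genes (5.61%: Areg, Cbx8, Ell2, Errfi1, Maff and Tubb2a), in 3.67% of the 5424 windows of all tested genes and in 1.79% of 32851 windows of all genes. The AP-1 motif TGANTCA was in 7.48% of the higher genes' windows, 4.66% of tested and 7.81% of all windows. The EGR motif GCGNGGGCG was in 14.0%, 11.3% and 5.55%, the CArG box bound by serum response factor in 1.87%, 1.35% and 1.63%, and TATAAA in 15.9%, 6.67% and 13.6%. Of the 10 rule gene windows, 2 held TGACGTCA, 4 the EGR motif, 1 the CArG box, 2 TATAAA and 0 the AP-1 motif. These matches describe letters in a window and do not show binding.

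Relatives of the rule genes were higher as a group. Of 7 measured AP-1 partners outside the rule, 4 were at least 2-fold higher in both libraries (Maff, Mafk, Fosl2 and Crem) and all had intervals above 0, against 2.14% and 13.1% of all genes tested, with median ratios of 1.03 and 1.07. Fosl2, which encodes the Fos family protein Fra-2, stood at 1.28 and 1.4. Of 4 Egr and Nr4a relatives, 3 were at least 2-fold higher. Nr4a2 and Nr4a3, orphan nuclear receptors induced by TCR signals, were at 340.0 against 135 CPM and 133 against 50.8 CPM in the isotype library, and at 339 against 101 CPM and 111 against 33.2 CPM in the Skint1 antibody library. Egr3 was at 48.1 against 21.6 CPM with isotype and 54.6 against 13.3 CPM with Skint1 antibody, with ratios of 1.15 (0.88 to 1.43) and 2.03 (1.76 to 2.31), whose difference between the libraries was not tested. The exception was Nab1, a corepressor of Egr proteins, at -0.07 and -0.23. Of 18 other immediate early genes, 7 were at least 2-fold higher and 17 had intervals above 0, with medians of 0.91 and 1.13. Among them Sgk1, a kinase of the growth factor response, was at 1.32 and 1.43, Gadd45a, a stress-induced growth arrest gene, at 1.04 and 1.2, and Cd69, the early activation marker that also retains T cells in tissue, at 0.73 and 0.98.

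Several inhibitors that end early signalling were higher in members as well, beside 2.14% of all genes at least 2-fold higher and 13.1% with intervals above 0. Their lists were not uniform. The lowest ratios were -0.11 and -0.23 among G protein signalling genes and -0.27 and -0.28 among STAT and SOCS genes. Among 5 MAP kinase phosphatases and Sprouty inhibitors, 4 had intervals above 0 and Dusp5, a nuclear phosphatase of ERK, was at least 2-fold higher, at 367 against 121 CPM with isotype and 356 against 91.1 CPM with Skint1 antibody. Among 13 NF-κB genes, the 3 at least 2-fold higher were all inhibitors: Nfkbia and Nfkbie, which hold NF-κB in the cytoplasm, and Tnfaip3, which encodes the ubiquitin-editing enzyme A20. Nfkbia stood at 1949 against 882 CPM with isotype and 2087 against 690.4 CPM with Skint1 antibody, and Tnfaip3 at 510.3 against 207 CPM with isotype and 457 against 161 CPM with Skint1 antibody. The DNA-binding subunits were lower in ratio, with Nfkb1 at 0.95 and 1.14, Rel at 0.97 and 1.04 and Rela at 0.09 and 0.09. All 6 mRNA decay factors outside the rule had intervals above 0, led by Zc3h12a, the endonuclease Regnase-1, at 1.18 and 1.37. Of 6 G protein signalling genes, Rgs1, Rgs2 and Rrad were at least 2-fold higher. Rgs1, which shortens chemokine receptor signals and is typical of tissue-resident T cells, was at ratios of 1.07 and 1.21. Of 9 STAT and SOCS genes, Socs3, an inhibitor of cytokine signalling, was at least 2-fold higher (1.13 and 1.29), and Socs1 stood at 0.87 and 1.09. Smad7, an inhibitor of transforming growth factor β (TGF-β) signals, was also among the 114 genes, at 1.23 and 1.13.

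Of 19 growth factor genes listed, 4 passed the filter, and Areg and Vegfa were at least 2-fold higher, beside 2.14% of all genes. Vegfa, which encodes the main inducer of blood vessel growth and lies at chr17:46016993-46032369 on the minus strand, was at 113 CPM in members and 34.1 CPM in other DETCs with isotype, and 105 and 23.4 CPM with Skint1 antibody. Its ratios were 1.73 (1.53 to 1.93) and 2.17 (1.97 to 2.37). The counting intervals of the summed levels in members and other DETCs did not overlap in either library, but most cells of both sets had no Vegfa UMI. Tgfb1, the TGF-β1 gene, was at 0.41 and 0.38 and Vegfb at -0.12 and 0.04. Below the filter, Metrnl, a secreted protein of the meteorin family, was at 9.82 against 2.72 CPM with isotype and 9.99 against 1.795 CPM with Skint1 antibody. Hbegf, another ligand of the epidermal growth factor receptor, had 3.73 and 3.57 CPM in members. Fgf7 and Fgf10, the keratinocyte growth factors ascribed to activated DETCs, together had 3 UMIs, all of Fgf7 in the Skint1 antibody library, over the members of both libraries, and Igf1 had 0. For Fgf7, Fgf10 and Igf1 no difference was detectable at these levels.

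**Figure D3:**
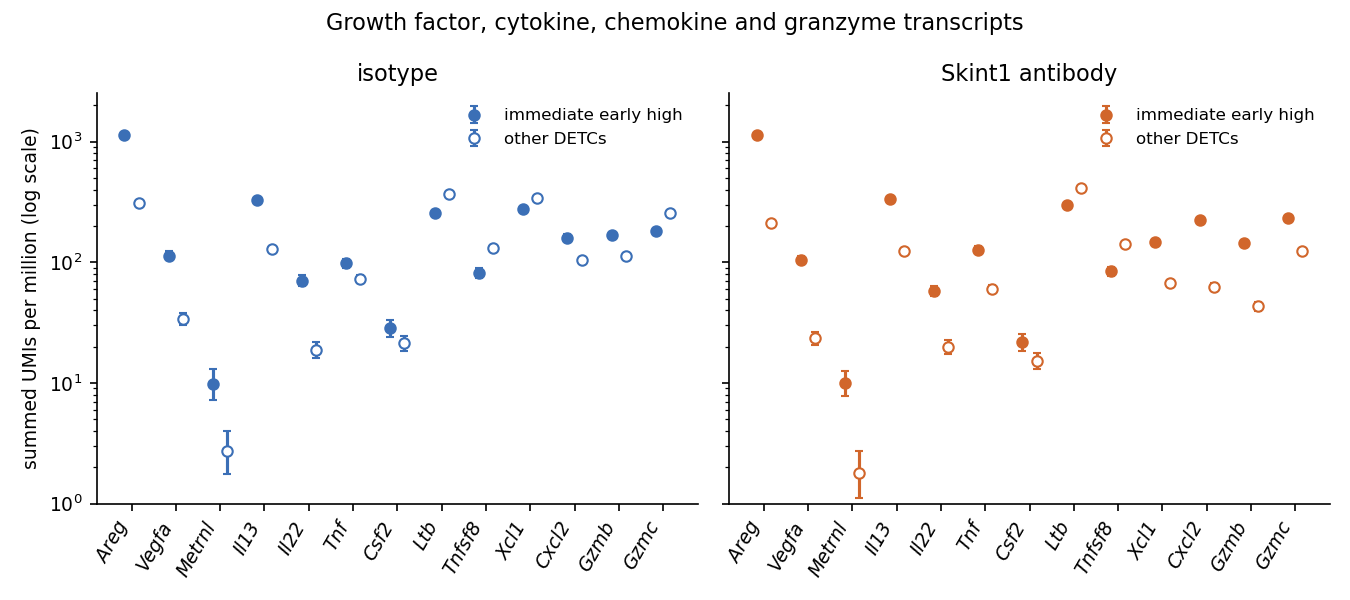
Level in CPM (log scale) of 13 secreted or cytotoxic effector genes in immediate early high DETCs (filled) and other DETCs (open), isotype library left and Skint1 antibody library right, with 95% counting intervals. Areg, Vegfa, Il13 and Il22 were higher in members of both libraries, Ltb and Tnfsf8 were lower in both, and Xcl1 and Gzmc changed order between the libraries.

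Detection in single cells followed the same order. After each cell was thinned to 2000 UMIs, leaving out shallower cells, Areg was detected in 50.9% (48.1 to 53.8) of 1216 members, 21.2% of 2194 other DETCs and 12.8% of 148 αβ T barcodes in the isotype library. In the Skint1 antibody library it was detected in 52.95% (50.6 to 55.3) of 1828 members, 15.4% of 2915 other DETCs and 15.8% of 133 αβ T barcodes. Median depth before thinning was 4026, 4114 and 3810 UMIs, and 3557, 3676 and 3719 UMIs, respectively. Areg was thus detected in about as many members as not, and in fewer of the other DETCs. In the Skint1 antibody library the share of other DETCs with Areg did not exceed that of αβ T barcodes, and whether αβ T cells express Areg themselves was not tested. Free RNA held Areg at 276 and 279.6 CPM, below the members of both libraries, below the other DETCs with isotype and above them with Skint1 antibody. Without thinning, Areg was seen in 727 of 1257 isotype members (57.8%) and 1112 of 1886 Skint1 antibody members (59.0%). Vegfa was detected in 15.8% and 14.7% of thinned members, 5.196% and 3.81% of other DETCs and 2.03% and 3.01% of αβ T barcodes. Free RNA held Vegfa at 49.1 and 54.6 CPM, below the members and above the other DETCs of both libraries. Among thinned members, Vegfa was found in 17.8% of those with Areg and 13.7% of those without in the isotype library, and in 17.8% and 11.2% in the Skint1 antibody library.

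Il13 was the 1 type 2 cytokine gene measured. It encodes interleukin 13, the type 2 cytokine that acts on epithelium, lies at chr11:53631324-53634702 on the minus strand, and was at 327 CPM in members and 128 CPM in other DETCs with isotype, and 336 and 124 CPM with Skint1 antibody, with ratios of 1.35 (1.25 to 1.46) and 1.44 (1.35 to 1.54). It was detected in 37.7% and 39.6% of thinned members, 17.6% and 17.4% of other DETCs and 6.76% and 9.02% of αβ T barcodes. Il4, Il5, Il9 and Il31 were each at or below 0.982 CPM in members of both libraries, so of this list only Il13 passed the filter. Gata3, the transcription factor of type 2 lymphocytes, was at ratios of 0.4 and 0.52. Il22, a cytokine of epithelial defence, was also at least 2-fold higher, at 70.1 against 18.8 CPM with isotype and 58.2 against 19.9 CPM with Skint1 antibody, but 357 UMIs came from 47 isotype members and the 10 highest of these cells held 59.9% of them. At a score threshold of 2% its isotype ratio was -0.02. Il17a was more concentrated still, with 154 UMIs in 15 isotype members and 149 of them in 10 cells, and stayed below the filter. With Skint1 antibody it had 34 UMIs in 8 members and 84 UMIs in 5 other DETCs.

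Other cytokines had smaller or opposite ratios in at least 1 library. Tnf was at 98.4 against 72.2 CPM with isotype and 127 against 60.3 CPM with Skint1 antibody, ratios of 0.45 and 1.08, and Il2, the T cell growth factor, at 0.39 and 0.77. Csf2, which encodes the granulocyte-macrophage growth factor GM-CSF, was at 28.3 against 21.2 CPM with isotype and 21.7 against 15.3 CPM with Skint1 antibody, and its DETC level in the Skint1 antibody library was below the filter. Ifng was at 2.94 and 4.28 CPM in members and 3.87 and 3.25 CPM in other DETCs. The membrane-bound ligands Ltb and Tnfsf8 (CD30 ligand) went the other way. Ltb was at 257 against 367 CPM with isotype and 295 against 414 CPM with Skint1 antibody, ratios of -0.52 and -0.49, and Tnfsf8 at -0.68 and -0.75. Of the 6 measured cytokines outside type 2, 3 had intervals above 0 and 2 below 0 in both libraries.

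Chemokine and granzyme genes did not have the same ratios in the 2 libraries. Xcl1, which encodes the chemokine that attracts XCR1+ dendritic cells, was at 278 against 341 CPM with isotype and 146 against 67.03 CPM with Skint1 antibody, so that its ratio was -0.3 (-0.39 to -0.2) with isotype and 1.13 (0.99 to 1.26) with Skint1 antibody. Gzmc, which encodes granzyme C, was at 181 against 253 CPM with isotype and 231 against 123 CPM with Skint1 antibody, with ratios of -0.49 (-0.6 to -0.38) and 0.91 (0.8 to 1.01). Members were lower than other DETCs in the first library and higher in the second for both genes. The counts were concentrated: the 10 highest isotype members held 31.4% of member Xcl1 UMIs and 66.0% of Gzmc UMIs, and the 10 highest Skint1 antibody members held 49.4% and 82.8%. Without the 10 members and 10 other DETCs with most UMIs of the gene, Xcl1 stood at -0.26 and 0.42 and Gzmc at -0.93 and 0.42, and with at most 5% mitochondrial UMIs the isotype ratios were 0.15 and 0.38. Xcl1 was detected in 15.8% of thinned members and 15.8% of other DETCs with isotype, and in 7.99% and 6.35% with Skint1 antibody, against 3.38% and 1.504% of αβ T barcodes. Gzmc was detected in 7.15% (5.77 to 8.75) of members and 7.02% (5.99 to 8.17) of other DETCs with isotype, and in 5.799% (4.77 to 6.97) and 3.19% (2.58 to 3.89) with Skint1 antibody. The shares with Gzmc thus overlapped in the isotype library and did not in the other. Gzmb, the main cytotoxic granzyme, was higher in members of both libraries, at 168 against 113 CPM with isotype and 143 against 43.1 CPM with Skint1 antibody, with ratios of 0.58 and 1.73, and so was Cxcl2, a neutrophil chemokine, at 0.61 and 1.84, and the interferon-induced chemokine Cxcl10, at 0.66 and 1.17. Differences of these ratios between the libraries were not tested. Gzmb UMIs were concentrated in isotype other DETCs, where the 10 highest cells held 39.1% of them, against 18.7% in isotype members. With Skint1 antibody these shares were 18.8% and 15.5%. The 10 highest members held 53.4% and 36.4% of member Cxcl2 UMIs, and its isotype detection overlapped between members, 6.497% (5.18 to 8.03), and other DETCs, 5.105% (4.22 to 6.11). Of 10 granule genes, 5 had intervals above 0 and 4 below 0 in both libraries. Prf1, the pore-forming protein perforin, was at 0.14 and 0.14, Serpinb6b, a serpin gene, at 1.01 and 1.03, and the granule gene Ctsw at -0.25 and -0.39. Nkg7, another granule gene, was at -0.14 and -0.29. The cytotoxic granule list as a whole therefore had median ratios of 0.02 and 0.17, with genes on either side of 0.

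Antigen receptor genes were lower or level in members. Of 7 TCR and CD3 genes outside the gate, 0 had intervals above 0 and 6 below 0, with medians of -0.27 and -0.28. The constant region Tcrg-C1 was at -0.27 and -0.3, Tcrg-V5 at -0.29 and -0.28, Cd247, the CD3 ζ chain, at -0.1 and -0.28 and Trgv2 at -0.81 and -0.9, while Trdv4 was at 0.04 and 0.06. Centring on the median gene turned the isotype ratio of Cd247 to 0.03. Near-identical γ constant regions can share reads, so the split among Tcrg-C genes is uncertain. Proximal signalling genes were spread about 0, with 2 of 12 above and 4 below: Lck, the kinase that starts TCR signalling, was at -0.23 and -0.2, and Ptpn6, the phosphatase SHP-1, at -0.41 and -0.74.

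Receptors for interferons and other cytokines split into higher and lower sets. Ifngr1, the ligand-binding interferon γ receptor chain, was the only one of 12 measured cytokine receptor genes at least 2-fold higher, at 79.5 against 36.6 CPM with isotype and 78.9 against 32.1 CPM with Skint1 antibody. Ifnar1, of the type I interferon receptor, was at 0.72 and 1.04 and Il10ra, of the interleukin 10 receptor, at 0.79 and 1.25. The TGF-β receptor genes were lower, with Tgfbr1 at -0.36 and -0.47 and Tgfbr2 at -0.34 and -0.4, beside the higher Smad7. Il2rb, the β chain of the receptors for interleukins 2 and 15, was at 0.26 and 0.24. Of 6 measured costimulatory receptor genes, Tnfrsf1b (TNF receptor 2), Tnfrsf18 (GITR) and Tnfrsf26 had intervals above 0, and the first of these was at 0.78 and 1.05. Tnfrsf9 (4-1BB) was at 129 against 122 CPM with isotype and 68.9 against 60.3 CPM with Skint1 antibody, Jaml, a costimulator that binds a keratinocyte ligand, at ratios of -0.01 and 0.12, and Klrk1, which encodes the stress ligand receptor NKG2D, at 0.09 and -0.04. Of 5 NK-type receptor genes measured, 3 had intervals below 0, beside 30.9% of all genes. Of the 2 inhibitory receptor genes measured, Cd160 was at -0.28 and -0.23, and Cd96 at -0.11 and -0.12 stood just above the median gene. Genes of epidermal residence stood near 0, with the E-cadherin receptor Itgae at -0.08 and -0.13 and Cdh1, E-cadherin itself, at 0.06 and -0.03, while the chemokine receptor Cxcr6 was at 0.45 and 0.41. Ptger4, a prostaglandin E2 receptor below the filter, was at 27.7 against 10.98 CPM with isotype and 33.95 against 7.61 CPM with Skint1 antibody.

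**Figure D4:**
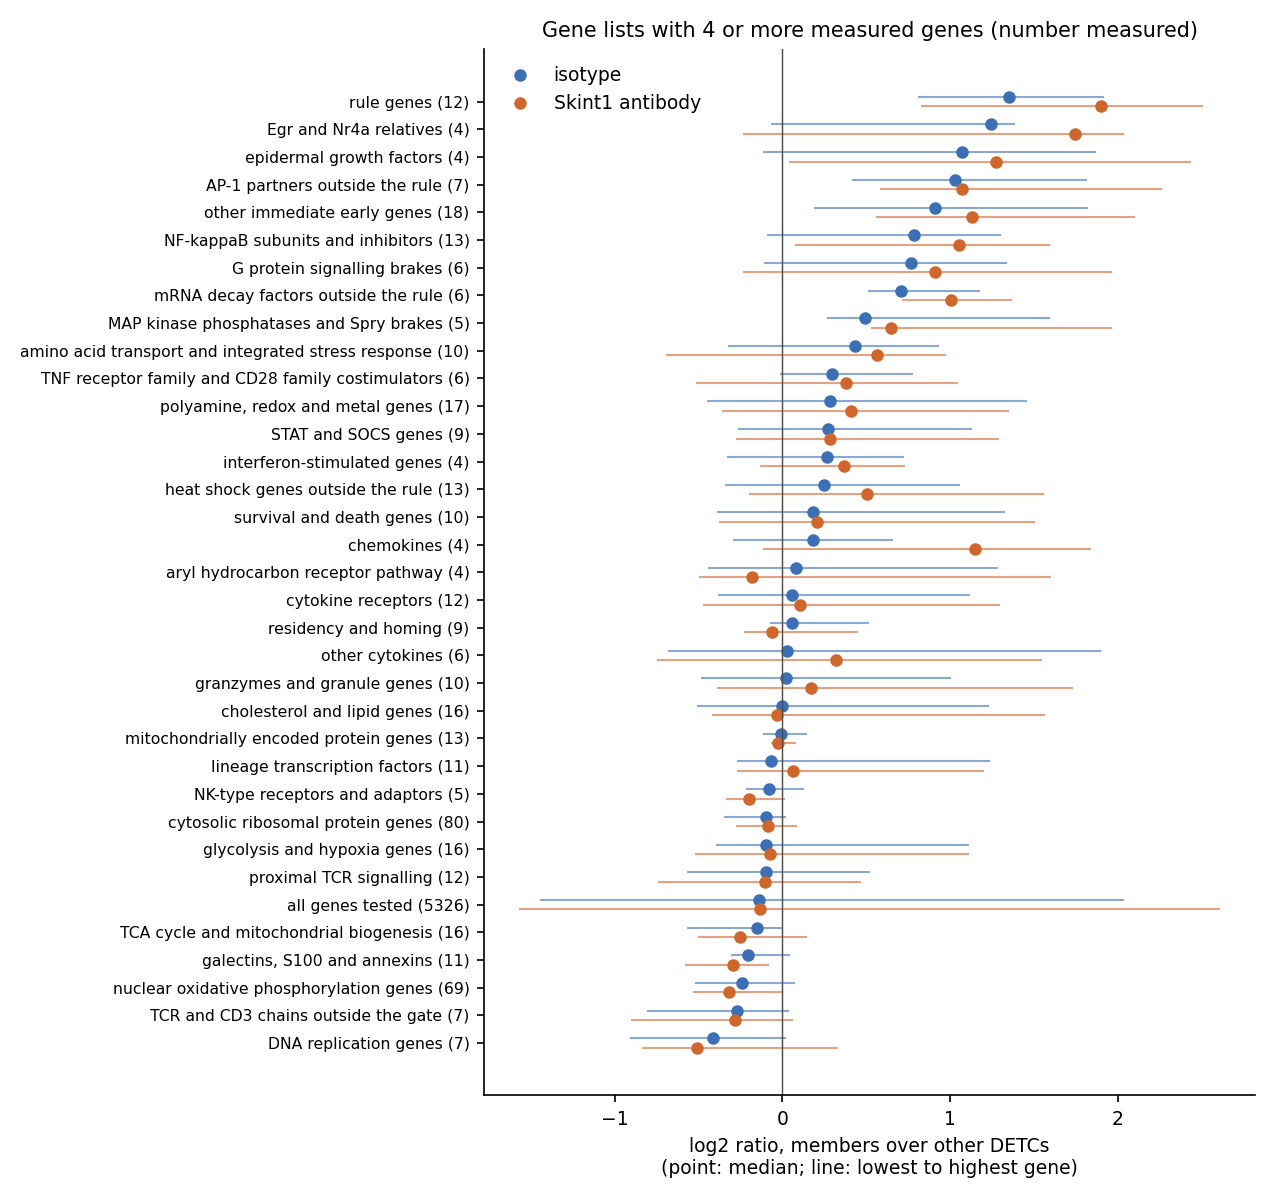
Log2 ratio of members over other DETCs for the gene lists with at least 4 measured genes (number measured in parentheses), with the median as a point and the lowest to highest gene as a line, for each library. The medians of the immediate early lists lie right of 0 and those of TCR chains, oxidative phosphorylation and DNA replication genes left of it, while the ranges of several lists cross 0, and all 5326 genes have a median of -0.14 in both libraries.

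Metabolic genes did not move as 1 group. Of 16 measured glycolysis and hypoxia genes, only Hk2, the inducible hexokinase that commits glucose to glycolysis, was at least 2-fold higher, at 811 CPM in members and 376 CPM in other DETCs with isotype, and 837 and 388 CPM with Skint1 antibody, with ratios of 1.11 (1.04 to 1.17) and 1.11 (1.05 to 1.17). Of the later enzymes, Pkm was at -0.36 and -0.39 and Eno1 at -0.39 and -0.52. Gapdh at -0.11 and -0.13 and Ldha at -0.13 and -0.09 were close to the median gene, and centring on it turned both to between 0.002 and 0.05. In the list 6 genes had intervals below 0, beside 30.9% of all genes. Hk2 was thus the 1 gene of the list past 2-fold. Hilpda, a lipid droplet protein induced by hypoxia, was at 543 against 177 CPM with isotype and 570.0 against 135 CPM with Skint1 antibody, but Hif1a, the hypoxia factor, was at -0.09 and 0.2. Of 10 amino acid transport and stress response genes, 7 had intervals above 0 and 0 were at least 2-fold higher. The glutamine transporter Slc1a5 led them, at 134 against 70.5 CPM with isotype and 124 against 63.01 CPM with Skint1 antibody, and Slc38a1, Slc38a2, Slc3a2 and Slc7a1 were at 0.44, 0.46, 0.39 and 0.43 in the isotype library. Phgdh, the first enzyme of serine synthesis, was lower, at -0.32 and -0.7.

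In the polyamine pathway, Amd1, which supplies the donor for spermidine synthesis, was at 1.46 and 1.35 and Odc1, the rate-limiting ornithine decarboxylase, at 0.54 and 0.82. The ferritin heavy chain gene Fth1 was at 0.54 and 0.5 and the light chain gene Ftl1 at 0.46 and 0.41. In the sterol list, Insig1, which retains the sterol sensor in the endoplasmic reticulum, and Fabp5, a fatty acid binding protein, were at least 2-fold higher (1.23 and 1.25, and 1.02 and 1.56). Mitochondrial genes of the nucleus were lower by small amounts. Of 69 nuclear oxidative phosphorylation genes, 61 had intervals below 0 and 0 above 0, with medians of -0.24 and -0.32, whereas the 13 mitochondrially encoded genes had medians of -0.01 and -0.02. Of 16 TCA cycle and related genes, 7 had intervals below 0 and 0 above 0. The 80 cytosolic ribosomal protein genes had medians of -0.1 and -0.09, with 70 intervals below 0, but these medians lie above the median of all genes (-0.14), so the sign turns when ratios are centred on it. Levels are shares of a total, so the higher rule genes, which made up a larger share of member UMIs, lower every other share slightly. With the rule genes, Hspa1a and Hspa1b removed from the total, the median of all genes was -0.12 in each library.

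The aryl hydrocarbon receptor Ahr, which DETCs need for their maintenance, was lower in members, at 183 against 249 CPM with isotype and 177 against 249 CPM with Skint1 antibody, with ratios of -0.44 (-0.55 to -0.33) and -0.5 (-0.59 to -0.4). Tiparp, a target that represses the receptor, was higher, at 1.28 and 1.6. Among 11 lineage transcription factors, Foxo1, a factor of T cell quiescence and homing, was at 1.24 and 1.2 and Bhlhe40, a factor of cytokine production, at 1.2 and 1.11, and both were at least 2-fold higher, whereas Runx3, Id2 and Tcf7 were between -0.19 and 0.07. Among survival genes, the kinase gene Pim1 was at 1.08 and 1.31 and Pim3 at 1.33 and 1.51, and Bcl2l11, the death inducer Bim, was at 0.71 and 0.81. Of 13 heat shock genes outside the rule, 9 had intervals above 0, beside 13.1% of all genes. Hspa5, the chaperone BiP of the endoplasmic reticulum, was at least 2-fold higher (1.06 and 1.06), and Dnajb1, a cochaperone of Hsp70, was at 0.74 and 1.56. Hspa1a and Hspa1b, limited by the rule, summed to 2290 and 1967 CPM in members and 4153 and 2630 CPM in other DETCs. Of 4 interferon-stimulated genes, Isg15 was at 0.71 and 0.73, Irf7 at 0.73 and 0.63, Bst2 at -0.18 and -0.13 and Gbp4 at -0.33 and 0.1. Summed over these 4 genes, members had 457 and 532 CPM and other DETCs 473 and 530.1 CPM.

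The 3 genes at least 2-fold lower were Stmn1, a microtubule destabilizer of dividing cells, at 31.2 against 73.8 CPM with isotype and 25.5 against 75.7 CPM with Skint1 antibody, the splicing factor Sf3b3 at -1.16 and -1.07, and the demethylase Alkbh1 at -1.45 and -1.05. The 10 highest members held 60.4% and 57.5% of member Stmn1 UMIs. Stmn1 was seen in 4.69% and 3.08% of members and 6.03% and 6.05% of other DETCs. Free RNA held it at 365 and 341 CPM, above both sets of cells in both libraries. Of 7 DNA replication genes, 4 had intervals below 0 and 0 above 0, among them the helicase subunit Mcm7 at -0.91 and -0.84. Of the 2 mitosis genes measured, Top2a, a topoisomerase, was at -0.51 and -1.0 and Cenpa, the centromeric histone, at 0.93 and 1.3. Of 11 galectin, S100 and annexin genes, 9 had intervals below 0 and 0 above 0. Lgals1, which encodes galectin-1, was at 1198 against 1485 CPM with isotype and 1218 against 1818 CPM with Skint1 antibody.

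Several effector genes followed the score, above the threshold as well as below it. Areg was at 15.98 CPM in isotype DETCs with a score below 0.3%, at 639.8 CPM at 0.9 to 1.2%, at 951 CPM at 1.2 to 1.8%, at 1121 CPM at 1.8 to 2.4% and at 1706 CPM at 2.4% and above. In the Skint1 antibody library the same bins held 9.96, 619.9, 952, 1126 and 1587 CPM. Areg therefore kept climbing above the threshold in both libraries. Vegfa was at 3.66 and 4.13 CPM in the lowest bin and 145 and 130.1 CPM in the highest, and Il13 at 29.6 and 34.99 CPM and 371 and 399 CPM. Ahr fell off across the same bins, from 294 and 276 CPM to 180.5 and 156 CPM, and so did Lgals1, from 1759 and 2093 CPM to 964 and 1004 CPM. Xcl1 and Gzmc had no steady course. Isotype Gzmc was at 398 CPM in the lowest bin, 74.8 CPM at 1.2 to 1.8% and 688 CPM in the highest, and Skint1 antibody Xcl1 was at 90.1, 301 and 58.5 CPM in the 3 bins above the threshold, with 334 of the 1025 Xcl1 UMIs of these members in 1 cell.

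**Figure D5:**
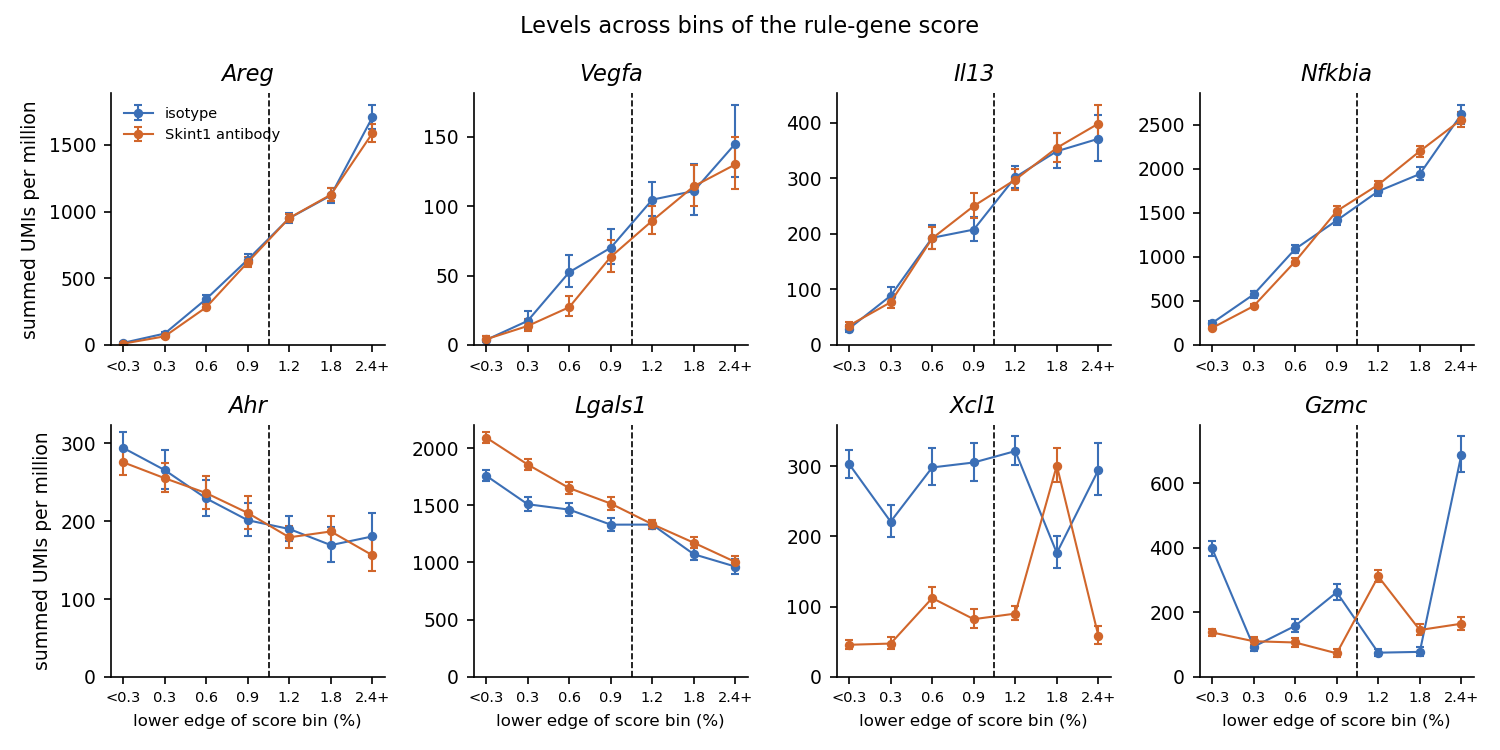
Level in CPM of 8 genes (vertical axes) in DETCs with Hspa1a and Hspa1b below 1% of UMIs, by bin of the score (lower edge in percent, horizontal axes), for each library with 95% counting intervals and the threshold of 1.2% dashed. Areg, Vegfa, Il13 and Nfkbia climb with the score, Ahr and Lgals1 decline, and Xcl1 and Gzmc follow no steady course in either library.

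Between treatments, members made up 35.5% of DETCs with isotype (exact binomial 33.9 to 37.1) and 38.1% with Skint1 antibody (36.8 to 39.5). After thinning to 2000 UMIs the shares were 35.7% (1219 of 3410 cells, 134 left out) and 38.5% (1827 of 4743 cells, 202 left out). At a score threshold of 2% they were 12.1% and 15.5%. With 1 library per treatment the difference was not tested. Few genes of the members differed 2-fold between treatments: of 5326 genes, 1 (0.0188%) was at least 2-fold higher and 2 (0.0376%) at least 2-fold lower with Skint1 antibody, and the median log2 ratio of Skint1 antibody over isotype was -0.02. Pcp4, a calmodulin-binding protein, was at 18.8 CPM in isotype and 39.9 CPM in Skint1 antibody members, a ratio of 1.08 (0.74 to 1.43), with 0.96 in the other DETCs. Ptpn6 was at 126 and 55.1 CPM, -1.19 (-1.38 to -1.01), with -0.86 in the other DETCs. Tnfrsf13b, the TNF receptor family member TACI, was at 68.5 and 31.5 CPM, -1.12 (-1.37 to -0.87), with -0.62. All 3 moved in the same direction in members and in other DETCs.

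For several leading genes of the members, the interval of the ratio between treatments included 0. The ratio of Skint1 antibody over isotype in members was 0.01 (-0.04 to 0.06) for Areg, -0.11 (-0.26 to 0.05) for Vegfa, 0.04 (-0.05 to 0.13) for Il13 and 0.05 (-0.01 to 0.1) for Hk2. In the other DETCs Areg was at -0.55 (-0.63 to -0.48) and Vegfa at -0.54 (-0.78 to -0.3). The larger Areg ratio of members over other DETCs with Skint1 antibody thus went with a lower level in the other DETCs. Heat shock high cells with a score of 1.2% or more were 211 of 2287 isotype and 111 of 3059 Skint1 antibody other DETCs. Their part in this lower level was not tested. Over the 114 higher genes, the median ratio between treatments was -0.10 in members (from -0.55 to 0.34) and -0.31 in other DETCs. Xcl1 was lower with Skint1 antibody at -0.93 (-1.04 to -0.81) in members and -2.35 (-2.46 to -2.23) in other DETCs. Without the 10 cells of each kind with most Xcl1 UMIs, the member ratio was -1.37. Tnfrsf9, the gene of 4-1BB, was at -0.9 (-1.08 to -0.73) and -1.02 (-1.16 to -0.89). Gzmc was at 0.35 (0.24 to 0.47) in members and -1.04 (-1.13 to -0.94) in other DETCs, and Gzmb at -0.23 (-0.36 to -0.1) and -1.39 (-1.54 to -1.23). For Gzmc the members and the other DETCs went in opposite directions between treatments, but without the 10 cells of each kind with most Gzmc UMIs the member ratio was -0.63. For Gzmb, the 10 highest isotype other DETCs held 39.1% of the UMIs of that set.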

How the data were processed

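Transcripts of sorted ear epidermal cells were counted in 2 droplet libraries (10x Genomics 3′ chemistry), 1 per treatment. Per the file headers and the study's methods, the authors aligned reads with Cell Ranger 3.0.2 to the mouse mm10 (GRCm38) reference and deposited raw UMI counts for every barcode, 6794880 barcodes by 31053 genes, with totals of 27272211 and 32450957 UMIs. No droplet removal had been applied, so the gene number and mitochondrial limits of the study's methods were applied here. The deposited counts do not map cells to clusters, so DETCs and members were found from the counts alone. The members, gene lists and thresholds were chosen with earlier results of these data known, and no list is independent evidence.

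For each group of cells, UMI counts were added up and scaled by the group's total (CPM). Ratios had exact conditional binomial 95% intervals, levels exact Poisson and shares Clopper-Pearson intervals; all cover counting error only, treat UMIs of 1 cell as independent and are too narrow for genes held by few cells. Genes were compared when they reached 20 CPM over the DETCs of each library and had a unique symbol, leaving out the rule genes, Hspa1a, Hspa1b and the gate genes. A gene was called when it differed at least 2-fold in both libraries. The text names genes of the lists and the 15 genes with the largest ratio in each direction, ranked by the smaller of the 2 libraries; Egr4, Smad7, Pcp4, Hsp90b1, Tfg and the genes named for a motif or a family were singled out after their values were seen. Free RNA came from barcodes with 1 to 100 UMIs. Doublets were kept, and Scrublet (Scanpy 1.11.5) marked 144 (3.39%) and 284 (4.77%) barcodes at a set rate of 0.8% per 1000 barcodes, among them 40 (3.18%) and 111 (5.89%) of members. Gene positions were those of GENCODE, and promoter windows those of RefSeq (GRCm38.p6). The software was Python 3.11.15, pandas 2.3.3, scipy 1.17.1 and numpy 2.4.6, tested on simulated data. Alternatives covered the score threshold, the choice of members without Fos, a split of UMIs, the total, centring, the heat shock high cells, mitochondrial and gene limits, doublets, Trdv4, thinning, per-cell means and the low-value filter. With 1 library per treatment there were no replicates, and no statistical test was made. Values of some genes are not reported here.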

Additional observations from a re-analysis of the deposited data

Results flagged for a closer look

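Xcl1 and Gzmc stood out because members were lower than the other DETCs in the isotype library and higher in the Skint1 antibody library. The Xcl1 log2 ratio was -0.30 with isotype and 1.13 with Skint1 antibody. The Gzmc log2 ratio was -0.49 with isotype and 0.91 with Skint1 antibody. With 1 library per treatment, the difference between the 2 ratios was not tested for either gene. At a score threshold of 2%, the Gzmc ratios were 1.02 and 0.05 and the Xcl1 ratios -0.30 and 0.22. Without the heat shock high cells among the other DETCs, the isotype Xcl1 ratio was -0.04. Of 5326 genes, 4 had intervals on opposite sides of 0 in the 2 libraries, and the others were Hsp90b1 (0.19 and -0.26), a chaperone of the endoplasmic reticulum, and Tfg (-0.39 and 0.30).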

How the results depend on the processing

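At a score threshold of 0.8% the members were 50.3% and 52.0% of DETCs in the isotype and Skint1 antibody libraries, and at 2% they were 12.1% and 15.5%. The 114 genes at least 2-fold higher in members became 47 at a threshold of 2%, of which 42 were shared, and 387 with no filter on low values (30960 genes compared), and lay between 92 and 166 under the other settings. The 3 lower genes became 0 at 2%, 1 after centring on the median gene, 25 with no upper limit on genes and 139 with no filter. The 1 gene higher with Skint1 antibody in members became 5 at 2%, 2 in the split of UMIs, 3 with at most 5% mitochondrial UMIs, 4 with no upper limit on genes, 0 after thinning and 572 with no filter. The 2 lower genes became 6 at 2%, 5 in the split and 651 with no filter. With no filter, more genes of few UMIs were compared; the cause of the other shifts was not tested. The isotype log2 ratio of Il22 reversed from 1.90 to -0.025 at 2%. Of 151 ratios past 2-fold among named genes, all kept their direction under 13 settings and 150 at 2%, where 98 remained past 2-fold. Without the heat shock high cells among the other DETCs, 150 genes were higher, 113 of them shared. Choosing members without Fos gave 92, of which 88 were shared. No paired analysis was possible because each treatment had 1 library. Depth limited genes below 20 CPM, such as Fgf7, Fgf10 and Igf1, for which differences could not be seen.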

Other observations

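Histone genes with symbols that begin with Hist and a digit were a group that the lists had not named, chosen after the values were seen. Whether their transcription went with DNA replication in these cells was not tested. Of 15 tested, 10 were among the 114 higher genes, all 15 had intervals above 0 in both libraries, and their median ratios were 1.16 and 1.18. Hist1h2bc, a core histone of nucleosomes, was at 1818 against 575 CPM with isotype and 1741 against 460.3 CPM with Skint1 antibody. Most transcripts of these genes lack a poly(A) tail and their copies are near-identical, so levels of single histone genes are uncertain. Of 7 DNA replication genes, 4 had intervals below 0, as given above. Over 78 genes of mitochondrial ribosomal proteins and translocases, likewise chosen after the values were seen, 0 were at least 2-fold different, 45 had intervals below 0 and 1 above 0, and the medians were -0.33 and -0.33.

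Several higher genes fell outside the lists. Muc1, a membrane mucin of epithelia, was at 50.9 against 17.4 CPM with isotype and 51.5 against 13.4 CPM with Skint1 antibody, and Ndrg1, a stress and hypoxia response gene, at 62.04 against 18.6 CPM with isotype and 57.8 against 14.8 CPM with Skint1 antibody. Ccrl2, an atypical chemokine receptor, was at 52.2 against 17.04 CPM with isotype and 46.4 against 11.8 CPM with Skint1 antibody. Vps37b, a subunit of the endosomal sorting complex, was at 516 against 164 CPM with isotype and 461 against 110.4 CPM with Skint1 antibody, Nabp1, a single-stranded DNA binding protein, at 1.64 and 1.8, and Ell2, a transcription elongation factor, at 1.61 and 1.91. Among the lowest genes, Mrpl34, of the mitochondrial ribosome, was at -0.95 and -1.02, Timm9, of mitochondrial import, at -0.79 and -0.75, and Adcy7, an adenylate cyclase, at -0.87 and -0.84. Between treatments, 42 of the 114 higher genes had intervals below 0 and 14 above 0 in members, beside 968 of all 5326 genes with an interval on either side of 0.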
